A study of Mus musculus with 18 samples.

Results

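The comparison set 6 cDNA arrays of mouse hearts after chronic intermittent hypoxia (CIH) against 6 arrays of control hearts. These are 12 of the 18 arrays of the series, and the other 6 hold hearts after chronic constant hypoxia (CCH). Both CIH and control hearts were sampled at 1, 2 and 4 weeks, with 2 arrays at each duration in each condition. The arrays were assigned by their titles. On each array, heart cDNA of male mice was labelled with the dye Cy5 and heart cDNA of female mice of the same condition with the dye Cy3. Every value is therefore a log2 ratio of the sexes, and a difference between conditions does not tell whether it arose in males or in females. The sources used here do not give the strain, the age, the cycle of the intermittent hypoxia, or whether replicate arrays hold different animals. The p-values then measure the spread between these arrays, which may be technical.

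Intermittent hypoxia exposes an animal to repeated spells of low oxygen with normal air in between, and is used as a model of sleep apnea. Low oxygen stabilises the transcription factor HIF-1, which raises genes of glycolysis, oxygen delivery and mitophagy. Low oxygen also raises erythropoietin, which drives the bone marrow to make red blood cells. Young red cells, the reticulocytes, still carry RNA for globin and heme synthesis and reach the heart with the blood, so RNA of a whole heart holds transcripts of its blood as well as of its muscle.

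The arrays had values for 15338 to 21846 spots under CIH and 12650 to 24233 in controls, of 28704 spots. A unit, meaning a gene or a spot with no single gene name, was tested if each of the 6 groups had a value. This left 10992 units, 7366 of them named genes. The ratio was read as male over female because the Y-linked gene Eif2s3y was positive, lying between 1.43 and 2.02 on 5 of the CIH arrays and between 1.00 and 2.00 on the 6 control arrays. On CIH 4 weeks replicate 1, Eif2s3y was at -0.03, against the label of that array. Its ratio of the X-linked gene Kdm6a, which escapes X inactivation, was -0.68, within the range of -1.09 to -0.28 on all 12 arrays. A second array, CIH 1 week replicate 1, is a 1-week CIH array by its title while its source names give 2 weeks of CCH. Results are given below with and without these 2 arrays. Correlations between pairs of arrays ran from -0.46 to 0.69, and 7 of 66 pairs were under -0.3. Within a group they ran from -0.04 between the 1-week controls to 0.69 between the 2-week CIH arrays. Of 12 markers of heart muscle cells, 2 could be tested, with the natriuretic peptide gene Nppa at -0.29 and the calcium pump regulator gene Pln at 0.49 for CIH minus control, neither past the test. Ratios carry no level, so the presence of heart muscle RNA cannot be read from them.

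Throughout, a gene that fell or rose did so in its male-to-female ratio, which does not show that the transcript fell or rose in either sex. The ratio fell under CIH for 6 of 13 tested genes on a list of red-cell markers, against 1.14% of all named genes tested. The list's median difference was -0.94, against -0.00535 over all units. The list was chosen with earlier results of these data known, so these contrasts with the background are no independent evidence. The 6 genes encode band 3 of the red-cell membrane (Slc4a1), enzymes of heme synthesis and breakdown (Alas2, Fech, Blvrb) and embryonic globins (Hba-x, Hbb-bh1). In whole-heart RNA, fewer cells of a type and less RNA per cell cannot be told apart. At 1 week the differences of these 6 genes ran from -0.64 to -0.08. They ran from -2.28 to -0.74 at 2 weeks and from -2.84 to -1.43 at 4 weeks. The 5th to 95th percentiles of all units were -0.45 to 0.41, -0.86 to 0.89 and -0.76 to 0.49 in the same order. The 6 genes were chosen for their mean over the same 3 durations, so their place against these percentiles is no separate evidence. Tested markers of the list that did not pass are left out of these ranges. The 1-week differences include CIH 1 week replicate 1, whose source names give 2 weeks of CCH.

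Promoters are shown for 3 genes whose ratios fell together, Alas2 and Hba-x from the red-cell list and Bpgm. Capitals mark GATAA, the core of the site of GATA factors, and CACCC, the core of the site of the red-cell factor KLF1, each on either strand (TTATC and GGGTG). The third motif searched was ACGTG, the core of the HIF site (CACGT on the other strand), which occurs in none of the 3. The sequences are from RefSeq on GRCm38.p6, from 250 bases before to 50 after the gene's start, written 5′ to 3′ on the gene's own strand.
Alas2, chrX:150547167-150547466, plus strand: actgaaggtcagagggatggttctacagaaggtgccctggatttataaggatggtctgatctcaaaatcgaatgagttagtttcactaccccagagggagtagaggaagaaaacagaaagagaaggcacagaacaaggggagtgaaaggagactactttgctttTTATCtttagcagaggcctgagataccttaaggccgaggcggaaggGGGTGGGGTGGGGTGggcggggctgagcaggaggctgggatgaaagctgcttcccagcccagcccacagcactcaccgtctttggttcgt
Hba-x, chr11:32276350-32276649, plus strand: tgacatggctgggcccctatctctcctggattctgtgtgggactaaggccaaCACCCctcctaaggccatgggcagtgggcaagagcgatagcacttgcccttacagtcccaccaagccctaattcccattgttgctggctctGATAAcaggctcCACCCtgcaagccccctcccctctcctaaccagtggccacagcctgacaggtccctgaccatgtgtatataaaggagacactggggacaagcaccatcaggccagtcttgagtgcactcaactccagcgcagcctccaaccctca
Bpgm, chr6:34476106-34476405, plus strand: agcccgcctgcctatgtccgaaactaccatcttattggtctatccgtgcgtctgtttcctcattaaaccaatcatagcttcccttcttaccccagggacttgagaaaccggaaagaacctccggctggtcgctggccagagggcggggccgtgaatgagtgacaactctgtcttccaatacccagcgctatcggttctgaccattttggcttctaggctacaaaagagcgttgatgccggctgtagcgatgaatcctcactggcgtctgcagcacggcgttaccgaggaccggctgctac
The Alas2 window holds 1 match of GATAA and 3 of CACCC, which follow each other without overlap. The Hba-x window holds 1 of GATAA and 2 of CACCC, and the Bpgm window holds 0 of the 3 motifs. The window of Slc25a39, which also fell, was searched in the same way and is not printed. It holds 0 of GATAA, 2 of CACCC and 0 of ACGTG. Of the 84 named genes that fell, 60 had an entry in the RefSeq table, with 80 promoters. GATAA was present in 18.8% of these 80, against 16.3% of the promoters of tested genes and 25.4% of all 32851 promoters. CACCC was present in 68.8% of the 80, against 63.2% of the promoters of tested genes and 57.5% of all promoters. ACGTG was present in 21.2%, against 25.6% and 19.6%. A match is a description of the letters and not a binding site.

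Alas2 encodes the first enzyme of heme synthesis in red-cell precursors. Its log2 ratios on the CIH arrays were -0.74 and -0.14 at 1 week, -1.77 and -2.82 at 2 weeks and -1.68 and -1.41 at 4 weeks. The control arrays had -0.30 and 0.13 at 1 week, -0.74 and 0.71 at 2 weeks and 0.54 and 1.47 at 4 weeks. The 2-week and 4-week CIH arrays all lay below every control array, while the 1-week CIH arrays overlapped the controls. Averaged over durations the difference was -1.73 ± 0.28 (SE, n = 6 arrays each, limma adjusted p = 0.0272), a 3.32-fold lower ratio, and all 6 CIH arrays were below the control mean of their duration.

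Fech encodes ferrochelatase, which inserts iron in the last step of heme synthesis. Its ratios under CIH were -0.62 and 0.23 at 1 week, -1.71 and -1.94 at 2 weeks and -1.43 and -1.18 at 4 weeks. In controls they were -0.18 and -0.05, 0.00 and 0.38, and 0.17 and 0.53 at the same durations. Outside week 1 the conditions did not overlap, and the difference was -1.25 ± 0.17 (SE, n = 6 each, limma adjusted p = 0.0181). Blvrb, a biliverdin reductase of heme breakdown that is abundant in red cells, averaged -0.64 ± 0.31 under CIH and 0.29 ± 0.48 in controls (SD, n = 6 each). Its difference was -0.94 ± 0.17 (SE, limma adjusted p = 0.0279).

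Slc4a1 encodes band 3, the anion exchanger of the red-cell membrane that serves carbon dioxide transport. Its fall was about as large as that of Alas2. The CIH arrays read -1.25 and -0.11 at 1 week, -1.34 and -2.44 at 2 weeks and -1.91 and -1.66 at 4 weeks. The control arrays read -0.28 and -0.09, -0.35 and 0.37, and 1.20 and 0.91. Only CIH 1 week replicate 2 lay among the controls. The difference was -1.74 ± 0.24 (SE, n = 6 each, limma adjusted p = 0.0181), and the 3 spots of the gene gave -2.17 to -1.40 when tested on their own.

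The globin spots showed the same direction. Hba-x, an embryonic alpha-like globin gene, had ratios of -0.79 and 0.22 at 1 week, -1.64 and -1.97 at 2 weeks and -1.27 and -0.50 at 4 weeks of CIH. In controls they were 0.44 and -0.01, -0.98 and 0.49, and 0.85 and 0.97. Control 1 week replicate 2 and control 2 weeks replicate 1 lay within the CIH range, and the difference was -1.28 ± 0.26 (SE, limma adjusted p = 0.0297). Hbb-bh1, an embryonic beta-like globin gene, averaged -1.16 ± 0.98 under CIH and 0.36 ± 0.81 in controls (SD, n = 6 each), a difference of -1.52 (limma adjusted p = 0.0293). Hbb-y, another embryonic beta-like gene, differed by -0.84 and did not pass (limma adjusted p = 0.354). Globin genes are close in sequence and adult globin RNA may bind these spots, so the globin that was measured is uncertain. The adult genes Hba-a1, Hbb-b2, Hbb-bt and Hbb-bs had no spot of their own, Hba-a2 had no value, and Hbb-b1 had a value on 1 array, 1.18 on control 4 weeks replicate 1.

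Among the 7 tested red-cell markers that did not pass, Car2, carbonic anhydrase 2, stood at -1.20 (limma adjusted p = 0.0642). Tspo2 was at -0.48, the membrane gene Ermap at -0.34 and the ammonia channel gene Rhag at -0.27. The transcription factor genes of red-cell precursors had differences near 0, with Klf1 at 0.03 on 10 arrays and Gata1 at 0.14 on 8. In all, 11 of the 13 differences were negative, against 5572 of 10992 over all units, with the same limit from the choice of the list. By array, the list's median ratio lay between -1.95 and 0.13 under CIH and between -0.22 and 0.85 in controls. The other 10 of the 23 markers on the list were not tested. The median difference of the list lay between -1.22 and -0.82 with any 1 array left out, and at -0.78 without both doubted arrays. Without both, the 6 differences were -1.52 for Slc4a1, -1.58 for Alas2, -1.07 for Fech, -1.15 for Hbb-bh1, -0.98 for Hba-x and -0.78 for Blvrb. Their limma adjusted p-values were then 0.231 to 0.276, and the 6 calls were lost. They were also lost without CIH 1 week replicate 1 alone (adjusted p from 0.0688 to 0.118) and without CIH 4 weeks replicate 1 alone (adjusted p from 0.0821 to 0.0937).

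**Figure D1:**
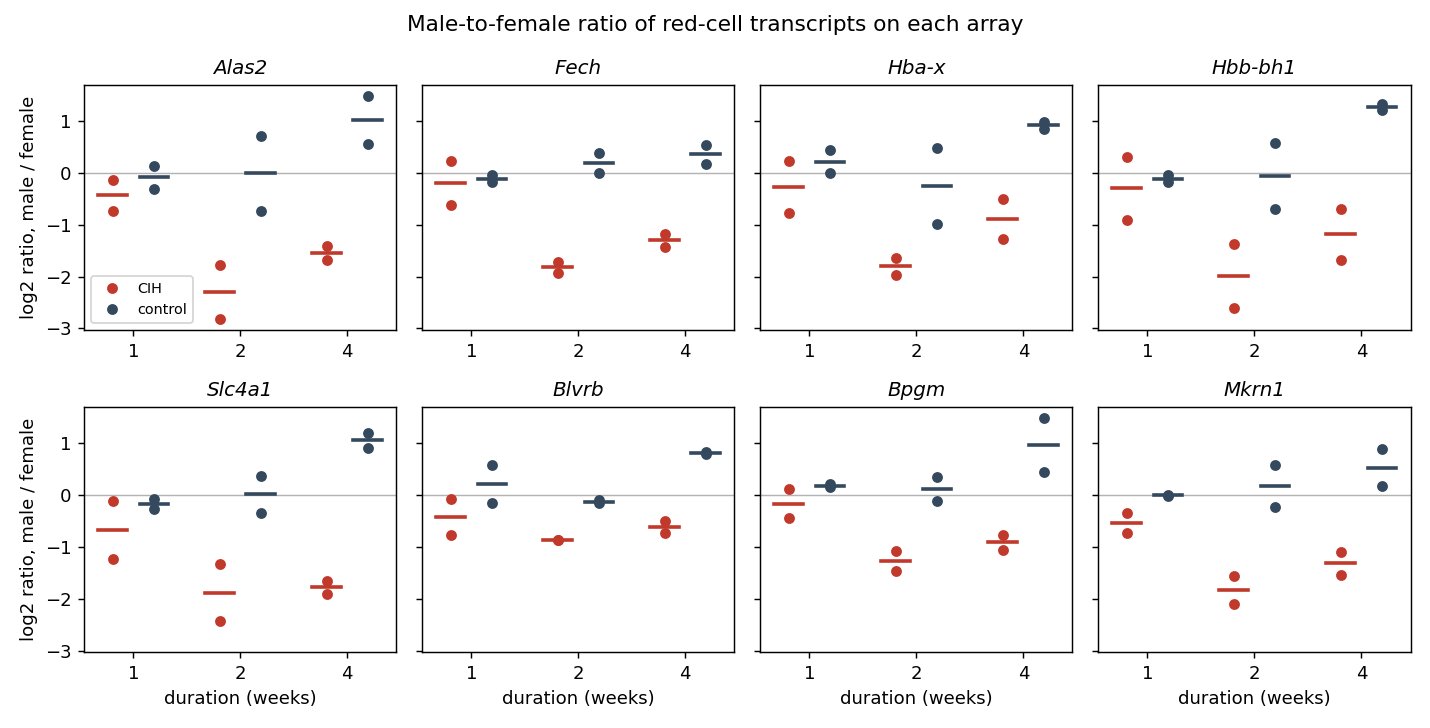
Log2 male-to-female ratio (y axis) of 8 genes on each array by duration in weeks (x axis), with CIH in red left of control in blue. Points are arrays and bars are the mean of the 2 arrays of a group. At 2 and 4 weeks the CIH arrays of Alas2, Fech, Slc4a1, Bpgm and Mkrn1 lie below the controls.

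Over all units the fall was close to one-sided. The ratio of 199 units changed (limma adjusted p under 0.05, 1.81% of 10992), with 198 lower under CIH (1.8%) and 1 higher (0.0091%). Of the 199, 85 were named genes (1.15% of 7366), 84 lower (1.14%) and 1 higher (0.0136%). An unadjusted p under 0.05 was reached by 1168 units (10.6%), 778 lower (7.08%) and 390 higher (3.55%). The smallest adjusted p was 0.0181. The 84 named genes that fell had a median difference of -1.06, from -1.86 to -0.63. Their mean ratio under CIH had a median of -0.84, and their mean ratio in controls one of 0.23.

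The number of calls depended on single arrays. Among the CIH arrays it was 0 without 1 week replicate 1, without 2 weeks replicate 2 and without 4 weeks replicate 1, and 0 without both doubted arrays. It was also 0 without replicate 2 of the controls at any of the 3 durations. It was 1 without control 1 week replicate 1, 7 without control 4 weeks replicate 1 and 117 without CIH 2 weeks replicate 1. It was 200 without CIH 4 weeks replicate 2, 250 without CIH 1 week replicate 2 and 326 without control 2 weeks replicate 1. The 198 lower units were chosen for their difference on these same arrays, so their sign with 1 array left out is no sign of stability. The median of the 198 differences was -1.11 with all arrays, -0.97 without CIH 1 week replicate 1, -1.05 without CIH 4 weeks replicate 1 and -0.91 without both.

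**Figure D2:**
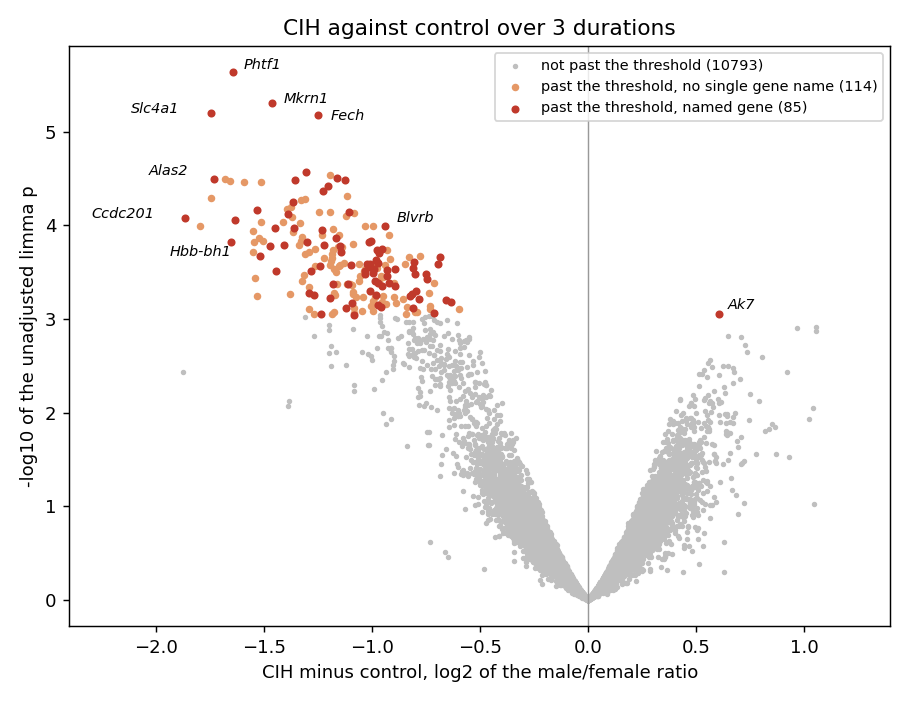
Difference of the log2 male-to-female ratio, CIH minus control over 3 durations (x axis), against -log10 of the unadjusted limma p (y axis) for 10992 units. The 85 named genes and 114 other units past the threshold lie on the negative side except Ak7.

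**Figure D3:**
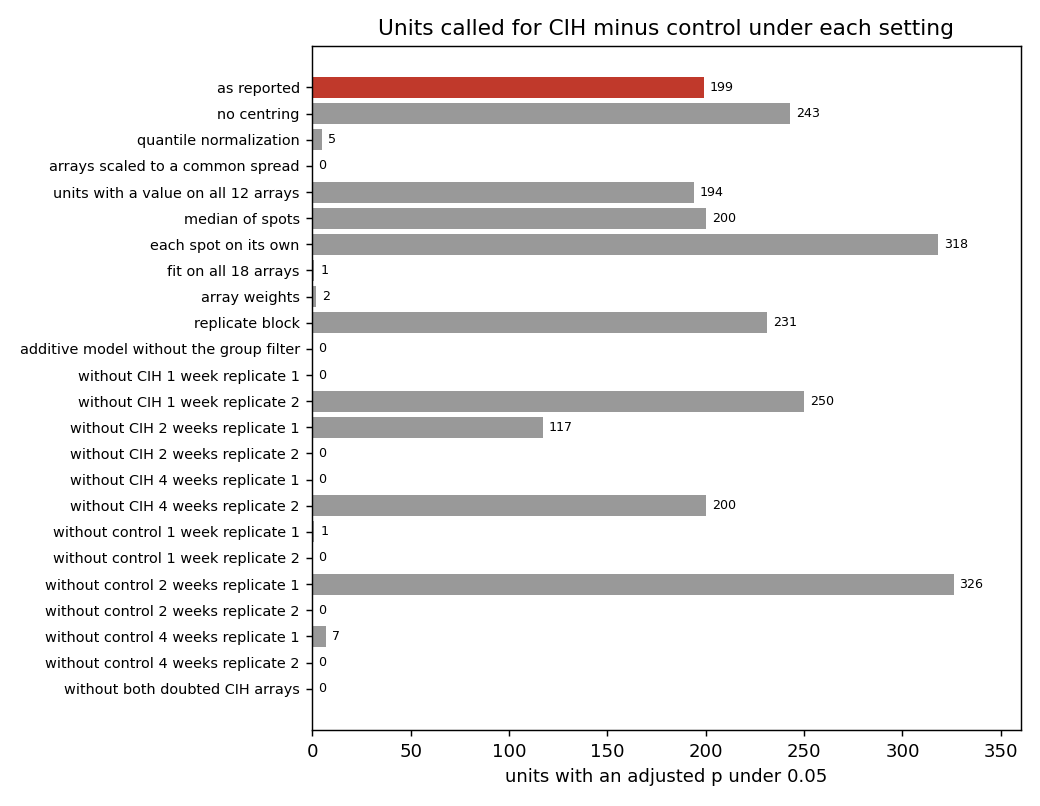
Number of units with an adjusted p under 0.05 (x axis) for CIH minus control as reported, in red, and under 23 other settings, in grey. The count runs from 0 to 326.

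The 84 genes were not at 1 level across arrays. Their median log2 ratios on the CIH arrays were -0.54 and 0.06 at 1 week, -1.23 and -1.71 at 2 weeks and -1.03 and -0.67 at 4 weeks. On the control arrays they were 0.05 and 0.02 at 1 week, -0.59 and 0.39 at 2 weeks and 0.64 and 0.83 at 4 weeks. Control 2 weeks replicate 1, whose title carries the code 1A, had the lowest median of the controls, near that of CIH 1 week replicate 1. CIH 1 week replicate 2 had a median near those of the 1-week controls. Of the 84 genes, 34 lay below the control mean of the same duration on every CIH array with a value. For 3 of them, Mkrn1, Nr2f2 and Sfi1, every CIH array was below every control array, and over all units 0.255% were separated in this direction and 0.237% in the other.

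Mkrn1, a ubiquitin ligase gene, had ratios of -0.73 and -0.35, -1.57 and -2.10, and -1.54 and -1.11 under CIH at 1, 2 and 4 weeks. In controls it had -0.01 and -0.02, -0.23 and 0.56, and 0.16 and 0.88. The conditions were separate at each duration, and the difference was -1.46 ± 0.19 (SE, n = 6 each, limma adjusted p = 0.0181). Without both doubted arrays the difference was -1.325 and the call was lost. Nr2f2 encodes the nuclear receptor COUP-TFII of veins and atria and differed by -1.35 (limma adjusted p = 0.0272). Its difference was -1.14 without both doubted arrays, and its call was lost too. Sfi1, a centrosome gene, differed by -0.75 (limma adjusted p = 0.0305). Both were outside the naming rule and are named because they complete the count of 3.

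The largest fall of all named genes was that of Ccdc201 at -1.86 ± 0.32 (SE, limma adjusted p = 0.0279, 5 CIH and 6 control arrays). Phtf1, a membrane protein gene, had the smallest p. Its ratios under CIH were -0.44 and 0.11 at 1 week, -2.26 and -2.90 at 2 weeks and -1.91 and -1.44 at 4 weeks. In controls they were -0.41 and 0.14, -0.28 and 0.61, and 0.49 and 0.46. At 1 week the conditions were alike in range, and at 2 and 4 weeks every CIH array was below every control. The difference was -1.64 ± 0.20 (SE, n = 6 each, limma adjusted p = 0.0181). Without both doubted arrays the difference was -1.47 and the call was lost, as it was without either of them alone.

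Further falls came from genes of varied function. Isg20, an interferon-induced exonuclease gene, averaged -1.48 ± 0.91 under CIH and 0.17 ± 0.86 in controls (SD, n = 6 each), a difference of -1.65. Pam, the peptide-amidating enzyme gene, differed by -1.63, the homeobox gene Alx1 by -1.53 and T2 by -1.47. Mrpl47 of the mitochondrial ribosome was at -1.45, the corepressor gene Tle5 at -1.44 and the growth factor receptor gene Fgfr2 at -1.41. Ggps1, which makes the lipid for protein prenylation, was at -1.39 and the DNA repair gene Mad2l2 at -1.37. The limma adjusted p-values of these 9 genes ran from 0.0279 to 0.0297. On control 1 week replicate 1 Isg20 was at -1.20, and on control 2 weeks replicate 1 at -0.41, both within its CIH range.

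Other genes with known roles in red cells were among the 84 and are named here after their values were seen. Bpgm encodes the mutase that makes the metabolite by which red cells lower the oxygen affinity of hemoglobin. Its ratios were -0.45 and 0.10, -1.09 and -1.47, and -1.06 and -0.77 under CIH at 1, 2 and 4 weeks. Controls had 0.15 and 0.20, -0.12 and 0.33, and 0.44 and 1.48. Every CIH array lay below both controls of its duration. The difference was -1.20 ± 0.20 (SE, n = 6 each, limma adjusted p = 0.0279), although its 2 spots gave -1.78 and -0.63 on their own. Without both doubted arrays the difference was -1.06 and the call was lost. Slc25a39, a mitochondrial carrier gene needed for heme synthesis, fell by 0.81 on the log2 scale (limma adjusted p = 0.0293). Ube2o, whose product clears proteins from maturing reticulocytes, fell by 0.97 (limma adjusted p = 0.0283). Rrm1 of nucleotide synthesis (-0.98), the kinetochore gene Zwilch (-1.22) and Pdgfrb, the receptor gene of pericytes (-0.63), are further members of the 84, also chosen after their values were seen.

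On the positive side 1 gene passed the threshold, Ak7, an adenylate kinase gene of cilia. Its ratios under CIH were -0.17 and -0.19, 0.40 and 0.25, and 0.41 and 0.15, and in controls -0.11 and -0.62, -0.51 and -0.58, and -0.62 and -0.37. All but the 1-week arrays were separate, and the difference was 0.61 ± 0.14 (SE, n = 6 each, limma adjusted p = 0.0494). The call was lost whichever 1 array was left out (adjusted p from 0.0505 to 0.176). The next on the positive side did not pass the test, with limma adjusted p-values from 0.0614 to 0.115. They included Susd6 (0.97), the cohesin gene Smc1a (0.65), Cox7b of respiratory complex IV (0.71), the interferon-induced GTPase gene Iigp1 (0.73), Oxnad1 (0.80), Rabepk (0.56) and the nucleolar gene Nolc1 (0.65). Klc1 (0.63), Ankrd39 (0.58), Tpd52 (0.67), Ska1 (0.54), A730090N16Rik (0.92), the splicing gene Rbm25 (0.52) and Mrpl40 (0.53) completed them.

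At single durations the tests had at most 2 arrays on each side, and 1 where a unit lacked a value. Among the genes named here, Rps12 at 1 week and Rmi1 at 4 weeks had 1 control array with a value. At 1 week 0 units passed (0%), and 205 had an unadjusted p under 0.05 (1.86%). The genes with the smallest p were Smim7 (-1.24), the ribosomal protein gene Rps12 (-1.55) and the gelsolin gene Gsn (-1.04) on the negative side, and Ly6e (1.39), Trim12c (1.23) and Def6 (0.86) on the positive. Without control 1 week replicate 2, 3 units passed. At 2 weeks 1 unit passed (0.0091%), Phtf1 at -2.74 ± 0.35 (SE, n = 2 arrays each, limma adjusted p = 0.0376), and 2173 had an unadjusted p under 0.05 (19.8%). Fech (-2.01) and Mkrn1 (-2.00) came next below 0, and Pafah1b3 (1.89), Mrpl40 (1.35) and the calcineurin gene Ppp3cc (1.41) above it, without passing. The 2-week count was 130 without control 2 weeks replicate 1. It was 2 without either of the 1-week CIH arrays, and 0 without any of the other 9 arrays.

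At 4 weeks 1 unit passed (0.0091%), Pabpc1, the poly(A)-binding protein gene of the cytoplasm, and 786 had an unadjusted p under 0.05 (7.15%). Pabpc1 had ratios of -1.22 and -1.26 under CIH, against 0.64 and 0.93 in controls, a difference of -2.02 ± 0.24 (SE, n = 2 each, limma adjusted p = 0.0165). At 1 week its difference was 0.22 and at 2 weeks -0.28. Slc4a1 (-2.84) and Ggps1 (-2.45) followed below 0, and Rmi1 (1.52), the kinase gene Fyn (0.73) and Ak7 (0.77) above it, none past the test. The count was 0 without either 4-week CIH array or control 4 weeks replicate 1, and 2 without either 2-week CIH array. It was 95 and 107 without CIH 1 week replicates 1 and 2, and 174 and 178 without control 2 weeks replicates 1 and 2.

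The test of whether the effect of CIH differed between durations found 0 units (limma F test, smallest adjusted p = 0.533), with 813 at an unadjusted p under 0.05 (7.4%). The difference in size between week 1 and the later weeks was therefore not shown for any single gene. Pabpc1 had the smallest p, followed by Phtf1, Akr1e1 (-0.47, 1.48 and -0.66 at 1, 2 and 4 weeks), Tiparp (-0.07, 1.80 and -0.45) and Pafah1b3 (-0.15, 1.89 and -0.20). Akr1e1 had 1 control array with a value at 4 weeks. Tiparp had 1 control array with a value at 2 weeks, and 1 array in each condition at 4 weeks. Among the 84 genes that fell, whose choice used the mean of the 3 durations, the median difference was -0.32 at 1 week with 77 negative, -1.33 at 2 weeks and -1.63 at 4 weeks, with 84 negative at both.

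**Figure D4:**
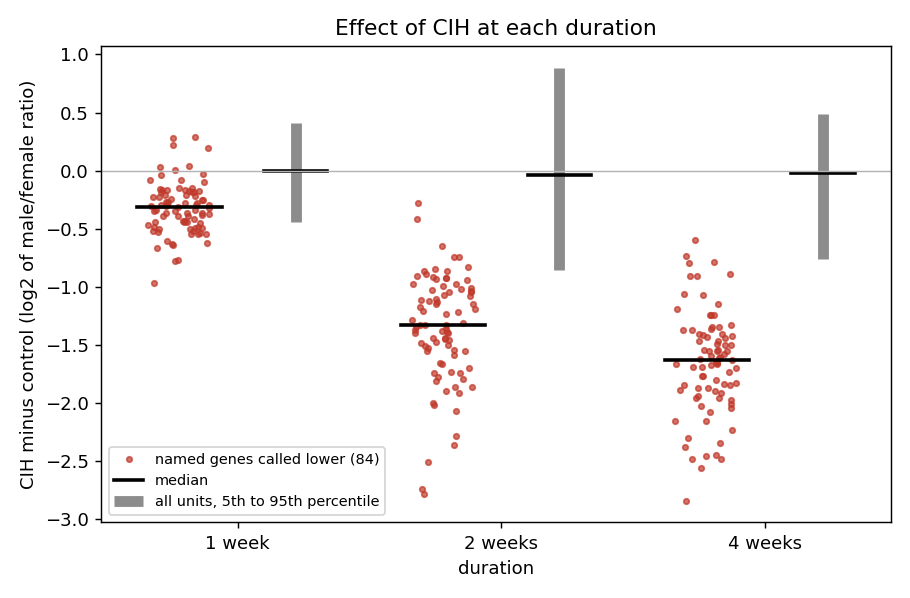
CIH minus control difference of the log2 male-to-female ratio (y axis) at 1, 2 and 4 weeks (x axis). Red points are the 84 named genes called lower over all durations, grey bars span the 5th to the 95th percentile of all units, and black lines are medians. The median of the 84 genes is -0.32, -1.33 and -1.63.

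Of 13 tested hypoxia-inducible targets, 1 fell and 0 rose, against 1.14% and 0.0136% of all named genes, and the median was 0.08, against -0.00535 over all units. With shares this low, counts of 0 or 1 on lists of this size are near the background and do not show that a list stayed unchanged, here and in the lists that follow. The 1 was Bnip3l, a mitophagy receptor gene that also clears mitochondria from maturing red cells. Its ratios were -0.30 and -0.01, -0.69 and -1.56, and -1.16 and -0.78 under CIH, and -0.27 and 0.11, -0.10 and 0.73, and 0.18 and 0.76 in controls. At 1 week the conditions overlapped, and later they did not. The difference was -0.99 ± 0.21 (SE, n = 6 each, limma adjusted p = 0.0332), -0.87 without both doubted arrays (adjusted p = 0.295). The other mitophagy receptor gene of the list, Bnip3, differed by 0.06, Higd1a by 0.40, the transferrin receptor gene Tfrc by 0.25 and the heme oxygenase gene Hmox1 by -0.01. Of 10 oxygen-sensing genes 0 passed, with Hif1a, the HIF subunit gene, at 0.30 and Eloc at 0.29. Of 20 genes of glycolysis and glucose uptake 0 passed (median 0.11), with the lactate transporter gene Slc16a1 at 0.50. The glucose transporter gene Slc2a1 was at -0.47 (limma adjusted p = 0.138), although its 2 spots gave -1.01 and 0.07 on their own.

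On the lists of mitochondrial energy metabolism 0 genes passed, near the background. Of 20 genes of the citric acid cycle list 18 were positive, with a median of 0.26 (0.15 to 0.42 with 1 array left out, 0.16 without both doubted arrays). Over all units 5572 of 10992 differences were negative, the background of the sign counts here and below. By array the list's median ratio was lowest on control 2 weeks replicate 2, at -0.84, followed by CIH 4 weeks replicate 2 at -0.34. At 1 week it was -0.01 and -0.04 under CIH and 0.28 and 0.02 in controls. Fumarase, Fh1, stood at 0.56, from -0.15, 1.90 and -0.08 at 1, 2 and 4 weeks. Its 2-week control value was that of replicate 2 alone, at -1.22. Pck2, the mitochondrial enzyme of gluconeogenesis, stood at -0.60 (limma adjusted p = 0.0704), with its 2 spots at -1.08 and -0.09. In fatty acid oxidation the median over 20 genes was 0.16, with the lipase gene Lpl at 0.64 and the dehydrogenase gene Acads at -0.67 (limma adjusted p = 0.102). The medians were 0.08 over 32 genes of complex I and 0.08 over 33 of complexes II to V.

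Lists of heart muscle and stress genes also had 0 calls apart from Gpx1 and Bnip3l. The medians were 0.19 for 11 genes of calcium handling, 0.06 for 11 of natriuretic peptides and hypertrophy and 0.01 for 5 of the sarcomere. With 1 array left out they ran from 0.08 to 0.35, from 0.01 to 0.16 and from -0.05 to 0.08 in the same order of lists, and the hypertrophy median was -0.02 without both doubted arrays. Of 30 lists followed in this way, the median of 13 changed sign with 1 array left out or without both. The lists were chosen with earlier results of these data known, so a kept sign is no sign of stability. Slc8a1, the sodium-calcium exchanger, stood at 0.55 and the transcription factor gene Mef2a at 0.42. Of 21 heat shock and chaperone genes 18 were positive (median 0.23, 0.13 to 0.29 with 1 array left out and 0.10 without both doubted arrays), led by Hsph1 at 0.50 and Dnajb4 at 0.48. Of 22 antioxidant genes 1 fell, Gpx1, a glutathione peroxidase that is abundant in red cells, by 0.97 on the log2 scale (limma adjusted p = 0.0448). Its mean ratio was -0.86 ± 0.74 under CIH and 0.12 ± 0.42 in controls (SD, n = 6 each). Without both doubted arrays the Gpx1 difference was -0.76 and the call was lost. Prdx4 was at -0.47, with its 3 spots from -0.74 to -0.01, and Nqo1 at -0.42, neither past the test. On the apoptosis list of 14 genes Bnip3l was the 1 call.

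Markers of other cells were measured beside the red-cell genes. Of 14 leukocyte and macrophage markers 0 passed and 10 were negative (median -0.16), among them the complement genes C1qa (-0.85, limma adjusted p = 0.10) and C1qb (-0.46). The medians were -0.08 for 9 endothelial and for 9 fibroblast markers, -0.03 for 3 smooth muscle markers and 0.19 for 8 skeletal muscle markers. For 5 markers of liver and plasma the median was -0.02, for 3 adipocyte markers -0.05, and the 1 lung marker was at -0.23. Of 8 thymus markers 0 could be tested. The part of blood or other cells in the fall of the 84 genes was not tested. The remaining lists had 0 calls too, with medians of -0.01 for 56 ribosomal proteins, 0.10 for 38 proteasome genes and -0.08 for 28 genes of the extracellular matrix. They were 0.17 for 7 genes of adrenergic signalling, -0.17 for 5 of the renin-angiotensin and endothelin systems, 0.09 for 13 immediate early genes and 0.13 for 6 of inflammation. For 9 clock and thyroid receptor genes the median was 0.05, and for 4 X-linked genes that escape inactivation 0.23. Of the Y-linked list Eif2s3y was the 1 tested gene, at -0.01.

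**Figure D5:**
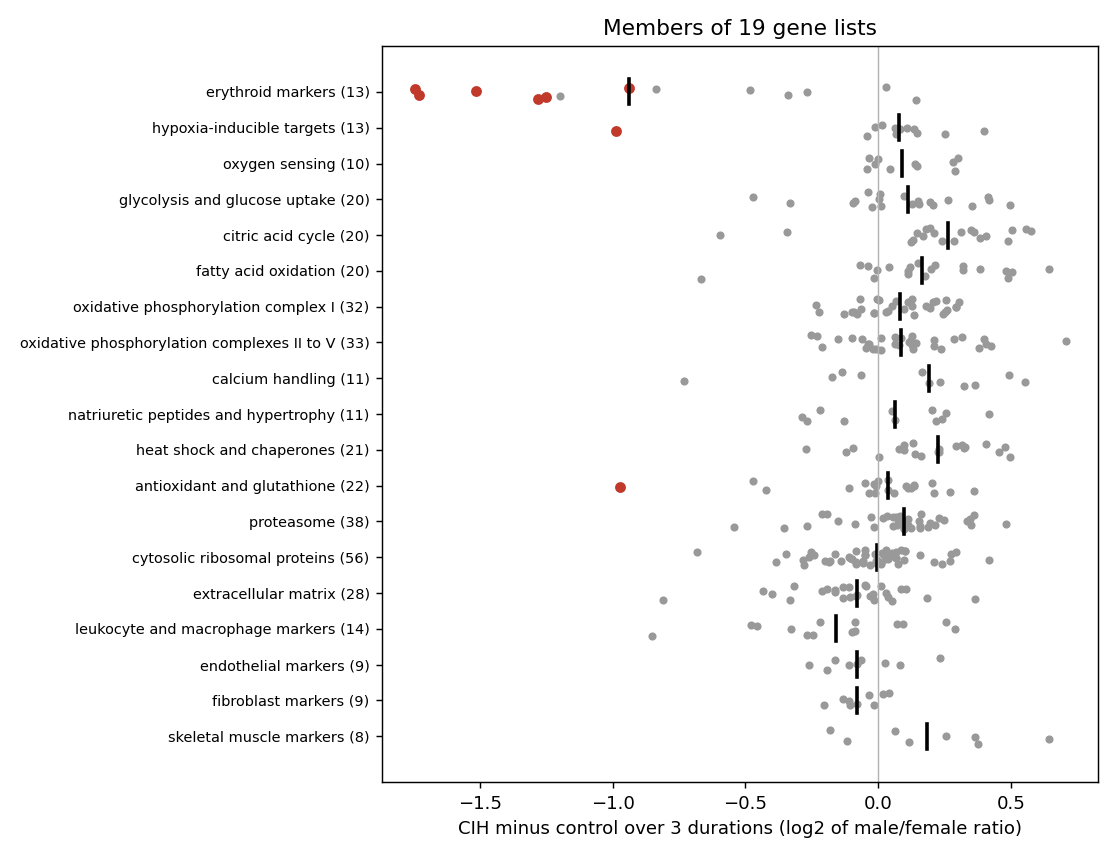
CIH minus control difference over 3 durations (x axis, log2 of the male-to-female ratio) of the tested members of 19 gene lists (rows, number of tested members in brackets). Red points passed the threshold, grey points did not, and black lines are medians. The red-cell markers lie lowest, with 6 of 13 past the threshold.

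The spread of the ratios on each array was compared between the conditions. It holds dye effects and noise of the array as well as differences between the sexes, and cannot tell these apart. The median absolute deviation per array averaged 0.381 ± 0.127 under CIH and 0.299 ± 0.127 in controls (SD, n = 6 arrays each, 8106 units). The difference of 0.082 had a two-sided p = 0.315 by exact permutation within duration (216 relabellings, smallest possible p 0.00926) and is within the spread between arrays.

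CIH hearts were set against CCH hearts, exposed to constant hypoxia for 1, 2 and 4 weeks with 2 arrays each, in a fit of all 18 arrays that was added after the data were seen. Of 10272 units 1 differed (0.00974%), and 953 had an unadjusted p under 0.05 (9.28%). The 1 unit was Phtf1, with a CIH minus CCH difference of -1.56 (limma adjusted p = 0.0101). Among the red-cell genes the CIH minus CCH differences were -1.61 for Slc4a1, -1.40 for Alas2 and -0.99 for Blvrb. Their limma adjusted p-values were 0.145, 0.227 and 0.0681. Fech was at -0.90, Hba-x at -1.03 and Hbb-bh1 at -1.06 (limma adjusted p = 0.309, 0.238 and 0.290). List members without a call against control ran from -1.46 for Car2 to 0.06 for Klf1. CCH minus control ran from -0.45 for Hbb-bh1 to 0.06 for Blvrb among the called red-cell markers, none past the test. On 1 of the CCH arrays, 2 weeks replicate 1, the ratios were low, with -2.04 for Alas2, -2.01 for Slc4a1, -1.66 for Fech, -1.72 for Hba-x, -2.09 for Hbb-bh1 and -0.67 for Blvrb. On the other CCH arrays Slc4a1 had 1.19 and 0.26 at 1 week, -0.14 at 2 weeks and 1.78 and -0.13 at 4 weeks. On CCH 4 weeks replicate 2, Alas2 was also low at -0.78 and Fech at -0.80. Hba-x was at 0.08, Hbb-bh1 at 0.06 and Blvrb at 0.92 on that array. The part of CCH 2 weeks replicate 1 in the differences was not tested. The fit also held CIH 1 week replicate 1 as a CIH array, although its source names give 2 weeks of CCH, and the comparison without it was not tested. A fall of red-cell genes under CIH that is larger than under CCH was therefore not shown by the test of the difference.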

How the data were processed

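Hearts of both sexes shared each of the 12 cDNA arrays, males in Cy5 and females in Cy3 per the labels. The deposited value of a spot is the log2 channel ratio, whose linear mean is 1 on every array. Base 2 was read from that. Background correction, spot filter and normalization by the authors are not given in the sources used here. The platform annotation gives 1 gene symbol for 18511 of 28704 spots, several for 937 and none for 9256. The RefSeq table held the identifiers of 18267 spots and changed 0 symbols.

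Values were centred on the array's median, and spots of 1 symbol were averaged. Spots without a single symbol were tested on their own. The model was that of limma 3.58.1 under R 4.3.3, with 6 group means, contrasts averaged over 3 durations, and eBayes (prior SD 0.285 on 6.69 degrees of freedom). Tests were two-sided, with Benjamini-Hochberg adjustment over 10992 units and a threshold of 0.05. Lists were described by counts and medians, without a set test. Counts of arrays below a mean refer to the control mean of the same duration. Depth cannot be given for arrays, and the 2 arrays per group limit the precision. The scripts were tested on simulated data. Plots used matplotlib 3.10.9.

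The rule for named genes took, per direction, the 15 largest changes past the threshold over 3 durations, filled by smallest p, 3 per direction at each duration, the 5 smallest p of the duration test, the 3 smallest p of each list, and 39 key genes, of which 27 could be tested. Only those that bear on a result are printed. The comparison, the 34 gene lists and the rule were chosen with earlier results of these data known. The alternatives tried concern centring, scaling, filter, spot averaging, samples in the fit, array weights, a replicate block and arrays left out.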

Additional observations from a re-analysis of the deposited data

Results flagged for a closer look

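Scanning 124 quantities in each condition made 248 groups of arrays, and in 10 of them (4.03%) 1 array stood apart, where chance puts about 1 group in 20 apart. On CIH 4 weeks replicate 1, Eif2s3y was at -0.03, against 1.43 to 2.02 on the other CIH arrays, and Klf1 at -0.60, against -0.03 to 0.17. Tpd52 was at 1.38 on CIH 2 weeks replicate 2, against 0.10 to 0.29 on the other CIH arrays. On control 2 weeks replicate 2, Higd1a was at -1.07 (others -0.07 to 0.51), Fh1 at -1.22 (others 0.12 to 0.60) and the list median of complexes II to V at -0.61 (others -0.06 to 0.24). On control 4 weeks replicate 1, Nolc1 was at -0.53 (others -0.15 to 0.04) and the list median of liver and plasma markers at 0.87 (others -0.03 to 0.27). On control 4 weeks replicate 2, Bpgm was at 1.48 (others -0.12 to 0.44) and Psme3 at 0.61 (others -0.10 to 0.16).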

How the results depend on the processing

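For CIH minus control, the 199 calls became 5 after quantile normalization, 0 after each array was scaled to the same spread, 318 with each spot on its own, 1 in the fit on all 18 arrays, 2 with array weights and 0 in the additive model without the group filter. They were 231 with a replicate block on the title letters, 243 without centring and 0 to 326 with 1 array left out, and 0 without both doubted arrays, an alternative added after the data were seen. The 1-week count was 0 to 3 with 1 array left out. The 2-week count was 2 without centring, 0 with scaled arrays, 0 with each spot on its own, 4 with array weights, 2 without both doubted arrays and 0 to 130 with 1 array left out. The 4-week count was 8 with quantile normalization, 0 with scaled arrays, 2 with the median of spots, 4 with each spot on its own, 0 in the fit on all 18 arrays, 0 with array weights, 48 with the replicate block, 0 without both doubted arrays and 0 to 178 with 1 array left out. The duration test gave 0 calls in all 22 settings, and the spread difference lay between 0.045 and 0.123 with p from 0.13 to 0.63 by the exact permutation test. Of 93 genes followed, 5 with differences near 0 changed sign: Def6 (-0.014 without centring, -0.071 to 0.091 with 1 array left out), Eif2s3y (0.31 with each spot on its own, 0.33 without both doubted arrays, -0.26 to 0.24), Kdm6a (0.069 with quantile normalization, 0.16 with scaled arrays, -0.092 to 0.084), Klf1 (-0.010 without centring, -0.066 to 0.12) and Akr1e1 (-0.034 to 0.27). Arrays of 1 title letter did not deviate together, with correlations of the A minus B differences between conditions of -0.23, -0.12 and -0.54 at 1, 2 and 4 weeks, so the letters were not taken to pair arrays. The cause of these dependences was not tested.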
